A study of Homo sapiens with 15 samples.

Results

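MLXIP, MLX, TXNIP and ARRDC4 are the 4 genes described here, out of 33367 genes summed from the deposited tables. MLXIP encodes the glucose-sensing transcription factor MondoA, MLX its obligate partner, and TXNIP and ARRDC4 are the best known genes that the pair switches on. They were selected on the summed read counts of MLXIP, which were much higher after induction of wild-type ETV6 than in its control. The ETV6_WT and tagBFP libraries therefore chose them: the values of all 4 genes in that comparison, and those of MLXIP in every comparison with those libraries, are a description with no test. All 4 were tested in the ERG experiment, and MLX, TXNIP and ARRDC4 in the comparisons with ETV6_R399C.

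The 15 RNA-seq libraries, in 5 groups of 3, all come from Reh, an established human line of B-lymphoblastic leukaemia with an ETV6::RUNX1 fusion and no other copy of ETV6. In the first experiment, transduced cell populations held a DoxON vector, which expresses its insert when doxycycline is added. The insert was V5-tagged wild-type ETV6 (ETV6_WT), the same with the substitution R399C in the DNA-binding domain (ETV6_R399C), or the blue fluorescent protein tagBFP as control (tagBFP), and doxycycline was given at 500 ng/ml for 48 h. In the second, cells with stably integrated, doxycycline-inducible dCas9-KRAB, an inactive Cas9 fused to a repressor domain, carried a guide against the ERG promoter (sgERG) or a non-targeting guide (sgCtrl). These were sorted on the guide vector's fluorescent reporter before 72 h of doxycycline at 500 ng/ml. ETV6 is a repressor of the ETS family and ERG an activator of the same family. All groups come from 1 line, the ETV6 genes are expressed from a vector and not from their own locus, and nothing in the labels says that replicates were separate cultures. A p-value here thus speaks only of the spread among these libraries, which may be technical.

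MondoA is held outside the nucleus, where 14-3-3 proteins bind it, until glucose 6-phosphate accumulates. Together with MLX it then enters the nucleus and binds E-box pairs called carbohydrate response elements. TXNIP, an alpha-arrestin, binds thioredoxin and takes glucose transporters off the cell surface, and ARRDC4, a related alpha-arrestin, also lowers glucose uptake, so that the pair's targets restrain the signal that switches them on. Because MondoA is regulated largely by its location, its messenger RNA is not a measure of its activity, and neither the protein nor its location was measured here.

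The promoters of TXNIP, ARRDC4 and MLXIP are printed with 3 kinds of match marked. The first is 1 layout of the paired element that MondoA and MLX read, matched in TXNIP only. The others are a single E-box in ARRDC4 and, in MLXIP, the GGAA core that ETS factors read. The sequences, from RefSeq (GRCh38.p14), are printed 5′ to 3′ in the direction of transcription and end just before the annotated starts. All 4 genes matched this table. For TXNIP (chr1:145996601-145996829, reverse strand) and ARRDC4 (chr15:97960453-97960697, forward strand) capitals mark a carbohydrate response element, searched as CACGNG followed after 5 bases by CACGNG, or the E-box CACGTG. For MLXIP (chr12:122078506-122078721, forward strand) they mark GGAA on either strand.
TXNIP: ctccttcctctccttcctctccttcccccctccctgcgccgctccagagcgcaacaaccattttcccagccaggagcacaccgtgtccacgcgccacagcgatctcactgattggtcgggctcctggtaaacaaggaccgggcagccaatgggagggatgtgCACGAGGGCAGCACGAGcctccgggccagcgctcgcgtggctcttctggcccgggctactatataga
ARRDC4: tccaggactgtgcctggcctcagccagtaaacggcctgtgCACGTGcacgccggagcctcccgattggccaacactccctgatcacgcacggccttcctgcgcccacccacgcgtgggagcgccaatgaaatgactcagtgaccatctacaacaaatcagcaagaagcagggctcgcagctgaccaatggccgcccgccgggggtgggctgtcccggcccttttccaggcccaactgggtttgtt
MLXIP: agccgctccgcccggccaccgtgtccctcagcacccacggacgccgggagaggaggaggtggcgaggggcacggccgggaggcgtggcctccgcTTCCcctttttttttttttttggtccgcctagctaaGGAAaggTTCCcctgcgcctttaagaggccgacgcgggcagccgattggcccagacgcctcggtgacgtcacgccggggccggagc
The match in TXNIP, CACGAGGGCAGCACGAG, began 88 bases upstream of its RefSeq start. Both strands of each window of 300 bases, from 250 bases before to 50 after the start, were searched, and 20 of 35116 RefSeq windows held such a pair (0.057%). The pair, as searched, had 0 matches in the windows of ARRDC4, MLX and MLXIP. Only this layout, with both CACGNG sites in the same direction, was searched. The search therefore cannot say whether those windows hold a pair in another layout. ARRDC4 had a single CACGTG 210 bases upstream of its start, and MLX (chr17:42566850-42567067, forward strand) had it 50 bases upstream. That E-box was in 7.26% of all windows. CCAAT, the box bound by NF-Y, was found 2 times in the window of TXNIP, 3 times in that of ARRDC4 and 1 time in each of those of MLX and MLXIP, and in 34.6% of all windows. MLXIP had 3 GGAA matches, the median over all windows, of which 95.5% held at least 1, and neither CACGTG nor GGAAGGAA, a tandem repeat found in 3.67% of windows. GGAA, marked in capitals only for MLXIP, had 5 matches in the window of TXNIP, 4 in that of MLX and 2 in that of ARRDC4. These are matches of letters and not measured sites.

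Library totals ran from 22040338 to 34046795 reads in the ETV6 experiment and from 31881225 to 52481351 in the ERG experiment. ETV6 stood at 5.86 ± 0.327 CPM (counts per 1000000 counts of named genes, TMM-scaled) with tagBFP, 373 ± 14.7 with ETV6_R399C and 486 ± 18.1 with ETV6_WT, and ERG stood at 525 ± 6.35 CPM with sgCtrl and 105.1 ± 4.14 with sgERG (SD, n = 3 each), in the direction the labels give. ETV6 was also lower with sgERG, at 6.56 ± 0.513 CPM against 13.2 ± 1.25 with sgCtrl. In the ETV6 experiment ERG stood at 302 ± 5.46 CPM with tagBFP, 302 ± 3.53 with ETV6_R399C and 328 ± 7.09 with ETV6_WT. Of 8 B-lineage markers 7 were detected in every group, with VPREB1 at 0, and their summed level was 3770 to 3790 CPM with tagBFP, 4640 to 4700 with ETV6_R399C, 4940 to 5050 with ETV6_WT, 4230 to 4260 with sgCtrl and 3950 to 4070 with sgERG. T-cell markers summed to at most 1.35 CPM and erythroid markers to at most 2.31 CPM in any library, with CD3D, CD2, HBB, HBA1 and ALAS2 at 0. Myeloid markers summed to 50.6 to 51.6 CPM with tagBFP, 86.1 to 90.4 with ETV6_R399C, 73.2 to 76.8 with ETV6_WT, 85.9 to 87.8 with sgCtrl and 109 to 125 with sgERG. The B-lineage and myeloid sums thus moved with the groups, and their part in the results was not tested. The library sgERG replicate 3 stood apart from its group: in a chi-square test of the counts over genes, the statistic divided by its degrees of freedom was 12.3 and 13.99 against the other two, and 2.79 to 6.66 for every other pair of replicates.

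MLXIP (ENSG00000175727, chromosome 12, 122078722 to 122147347, forward strand, hg38) was 2.57-fold higher with wild-type ETV6 and 2.14-fold higher with ETV6 R399C than with tagBFP, and the 2 ERG groups overlapped. Its levels were 272, 271 and 255 CPM in the tagBFP libraries. They were 575, 572 and 558 CPM with ETV6_R399C. With ETV6_WT they were 662, 686 and 702 CPM. The 3 groups did not overlap, in the order tagBFP, ETV6_R399C, ETV6_WT, and the spread within each was small, with SDs of 9.55, 8.98 and 20.3 CPM around means of 266, 568.5 and 683.5. The log2 fold change was 1.36 for ETV6_WT over tagBFP, the 177th largest rise among 14242 genes, and 1.10 for ETV6_R399C over tagBFP. Between the 2 forms of ETV6 the difference was 0.27 on the log2 scale, and 0.16 when the mean length of the transcripts in each library was taken into account. These comparisons share libraries, and none was tested for this gene. In RNA from whole cultures, fewer cells of a type and less RNA per cell cannot be told apart.

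In the ERG experiment MLXIP stood at 407, 389 and 389 CPM with sgCtrl and at 411.5, 383 and 399.9 CPM with sgERG. The libraries of the groups were interleaved. The log2 difference was 0.01 ± 0.04 SE (edgeR's quasi-likelihood test, Benjamini-Hochberg adjusted p = 0.88), while ERG itself was lower, as above. Leaving out single libraries gave differences from -0.01 to 0.04.

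**Figure D1:**
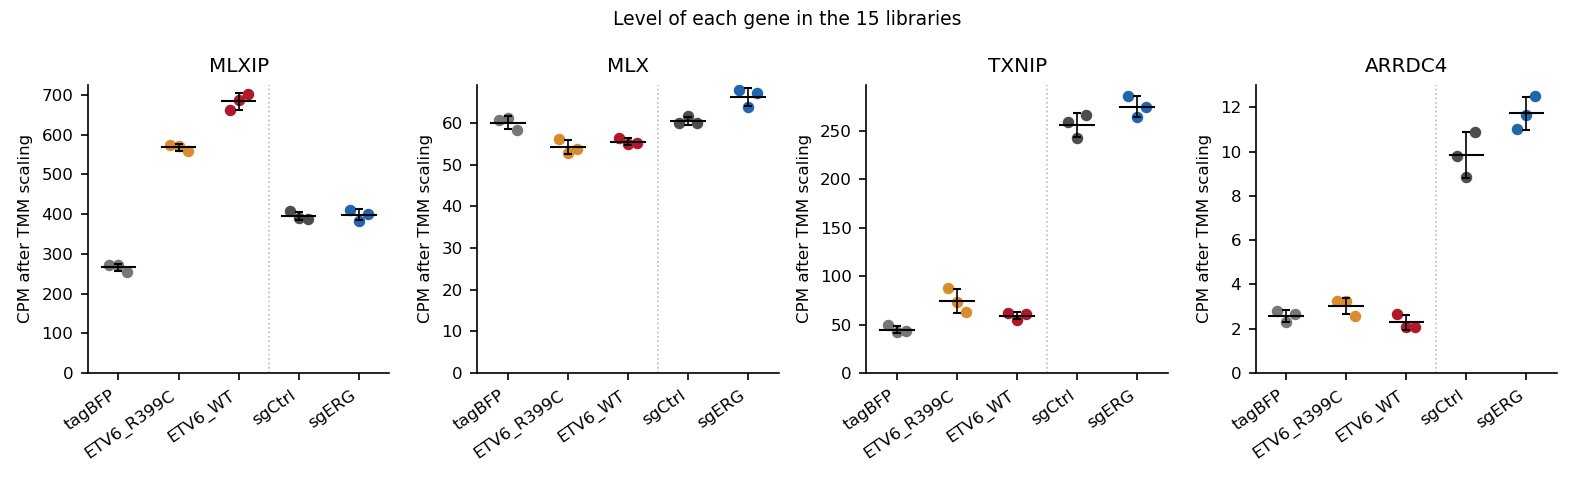
Level of each of the 4 genes in every library, in CPM after TMM scaling within each experiment (vertical axes from 0). Points are libraries, long bars group means and error bars SDs over 3 libraries; the dotted line parts the ETV6 experiment from the ERG experiment. MLXIP separates the first 3 groups, while MLX stays between 52.7 and 67.9 CPM throughout.

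MLX (ENSG00000108788, chromosome 17, 42567068 to 42573239, forward strand), without which MondoA does not bind DNA, moved little. It stood at 60.7, 61.15 and 58.3 CPM with tagBFP, at 56.1, 52.7 and 53.8 with ETV6_R399C, and at 56.5, 54.9 and 55.15 with ETV6_WT. All 6 libraries with either form of ETV6 lay below all tagBFP libraries. With ETV6_R399C it fell by 0.15 on the log2 scale from tagBFP (± 0.04 SE, edgeR adjusted p = 0.0059), a call that was lost when transcript length was taken into account (adjusted p = 0.14). In ETV6_WT over tagBFP, where it was not tested, the log2 difference was -0.11, or -0.07 with the length correction. The 2 forms of ETV6 overlapped, with a difference of 0.03 ± 0.04 SE (edgeR adjusted p = 0.58). In the ERG experiment the sgCtrl libraries read 59.9, 61.7 and 59.9 CPM and the sgERG libraries 67.9, 63.8 and 67.0, all above. That difference, 0.13 ± 0.04 SE on the log2 scale, did not pass the threshold (edgeR adjusted p = 0.072, unadjusted p = 0.013). MLX overlaps PSMC3IP on the other strand, a gene with 786 to 1411 reads per library, and the 2 genes could exchange reads, since no source used here gives the strand setting of the counting.

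TXNIP (ENSG00000265972, chromosome 1, 145992435 to 145996600, reverse strand) was higher with both forms of ETV6 than with tagBFP, and highest with the R399C form. Its levels were 49.2, 41.8 and 43.2 CPM with tagBFP. With ETV6_R399C they were 87.2, 73.1 and 62.9 CPM, the widest spread of any group, with a coefficient of variation of 16.4%. With ETV6_WT they were 62.3, 54.9 and 60.5 CPM. No library with either form of ETV6 fell as low as a tagBFP library, and every ETV6_WT library was below every ETV6_R399C library, by a narrow margin between 62.3 and 62.9 CPM. TXNIP rose 1.66-fold with ETV6_R399C over tagBFP (log2 0.73 ± 0.10 SE, edgeR adjusted p = 0.00018), and the call held in all 12 alternatives, with log2 values from 0.62 to 0.84. In ETV6_WT over tagBFP, untested, it was 1.32-fold higher (log2 0.40). It fell by 0.33 on the log2 scale in ETV6_WT over ETV6_R399C (± 0.10 SE, edgeR adjusted p = 0.04). That call was lost without any 1 of 5 of the 6 libraries. It became log2 -0.21 (edgeR adjusted p = 0.13) without ETV6_R399C replicate 1 and -0.35 (0.086) without replicate 2, and -0.39 (0.058), -0.30 (0.13) and -0.35 (0.083) without ETV6_WT replicates 1, 2 and 3. With the length correction it was -0.32 (0.087), and over all 12 alternatives the adjusted p ran from 0.0037 to 0.13.

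With the ERG guide, TXNIP stood at 285, 264 and 275 CPM, against 259, 242 and 266.5 CPM with sgCtrl. The groups overlapped, and the log2 difference was 0.10 ± 0.05 SE (edgeR adjusted p = 0.19).

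ARRDC4 (ENSG00000140450, chromosome 15, 97960698 to 97973838, forward strand) was the least abundant of the 4 genes, with 47 to 88 reads per library in the ETV6 experiment and 326 to 530 in the ERG experiment. It stood at 2.79, 2.29 and 2.66 CPM with tagBFP, at 3.24, 3.23 and 2.59 with ETV6_R399C, and at 2.68, 2.08 and 2.10 with ETV6_WT. All 3 groups overlapped. The log2 difference was 0.23 ± 0.17 SE in ETV6_R399C over tagBFP (edgeR adjusted p = 0.31) and -0.41 ± 0.17 SE in ETV6_WT over ETV6_R399C (edgeR adjusted p = 0.11). In ETV6_WT over tagBFP, untested, it was -0.18. These SEs were wider than those of the other 3 genes, whose read counts were higher. With sgERG it stood at 11.01, 11.7 and 12.5 CPM, all above the 9.79, 8.85 and 10.9 CPM with sgCtrl, a log2 difference of 0.25 ± 0.09 SE that did not pass the threshold (edgeR adjusted p = 0.11, unadjusted p = 0.025).

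Counted over the 4 genes, 3 did not overlap between ETV6_WT and tagBFP, as was so for 48.2% of all 14242 genes, and this count rests on the libraries that chose them. In ETV6_R399C over tagBFP, TXNIP was called higher and MLX lower among the 3 tested, where 40.9% of all genes were called. In ETV6_WT over ETV6_R399C, TXNIP was called lower among 3, where 21.4% of all genes were called, 12.1% higher and 9.29% lower. That split turned over in some alternatives: 863 genes were called higher and 1146 lower without ETV6_WT replicate 2, and 1336 higher and 1549 lower with upper-quartile scaling, against 1721 and 1323 as above. With sgERG none of the 4 was called by edgeR or by DESeq2, 2 had an unadjusted p under 0.05 (MLX and ARRDC4), and 14.6% of 13464 genes were called. Those 2 were also the ones whose groups did not overlap, as 34.6% of all genes did not. Without sgERG replicate 3 the differences were 0.01 for MLXIP, 0.12 for MLX, 0.10 for TXNIP and 0.20 for ARRDC4, with edgeR adjusted p = 0.91, 0.071, 0.17 and 0.22.

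Levels of different genes were compared as TPM (transcripts per 1000000 transcripts), which allows for length. With tagBFP, MLXIP and MLX were level as sums over all their transcripts, at 41.4 ± 3.06 and 40.8 ± 2.83 TPM (SD, n = 3), a ratio of 1.01 ± 0.0217. The ratio was 2.53 ± 0.217 with ETV6_R399C and 2.69 ± 0.0574 with ETV6_WT. On this scale the libraries of the 2 forms overlapped for MLXIP, at 92.4 to 103.7 TPM with ETV6_R399C and 100.4 to 108.1 TPM with ETV6_WT. With sgCtrl the ratio was 1.95 ± 0.0556 and with sgERG 1.87 ± 0.0338. These sums include short and retained-intron transcripts. The main transcripts alone were not level with tagBFP, at 30.2 ± 1.49 TPM for MLXIP-201 and 19.7 ± 0.898 TPM for MLX-203. TXNIP stood at 21.0 ± 1.58 TPM with tagBFP, 35.75 ± 5.83 with ETV6_R399C and 27.3 ± 1.46 with ETV6_WT, each time below MLXIP, but at 134 ± 6.4 and 146 ± 8.18 TPM with sgCtrl and sgERG, above it. ARRDC4 stood at 0.676 ± 0.0693, 0.849 ± 0.117, 0.606 ± 0.0861, 3.11 ± 0.322 and 3.75 ± 0.16 TPM in the same order of groups.

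The control groups of the 2 experiments thus differed. The sgCtrl level was 6.38 times that of tagBFP for TXNIP in TPM, 4.6 times for ARRDC4, 2.01 times for MLXIP and 1.05 times for MLX. In CPM, scaled within each experiment, the ratios were smaller, at 5.73 for TXNIP, 3.82 for ARRDC4, 1.49 for MLXIP and 1.01 for MLX. Vector, cell selection, induction time and experiment cannot be told apart in these ratios, which were not tested.

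Nearly all reads of MLXIP were given to 1 transcript. MLXIP-201, which has 17 exons and begins at the annotated start of the gene, held 92.0% to 95.4% of them over the 15 libraries, at 231 ± 9.44 RPM (reads per 1000000 reads) with tagBFP, 501 ± 11.4 with ETV6_R399C, 594 ± 18.1 with ETV6_WT, 339.7 ± 9.81 with sgCtrl and 345 ± 13.2 with sgERG. The order of the groups was thus that of the gene. MLXIP-209, a retained-intron transcript of 7 exons inside the gene (122127888 to 122134164), had another order. It stood at 0.36 ± 0.623 TPM with tagBFP, where 2 of the 3 libraries gave it 0 reads, at 3.10 ± 0.379 with ETV6_WT, 5.58 ± 0.705 with ETV6_R399C, 14.7 ± 1.35 with sgCtrl and 18.0 ± 0.943 with sgERG. It was therefore higher with the R399C form than with the wild type, the reverse of the gene. Main transcripts also led the other genes: over the libraries MLX-203 held 63.7% to 74.6% of the reads of MLX, and TXNIP-204, with 8 exons, 90.9% to 96.8% of those of TXNIP, while ARRDC4 has 1 annotated transcript. Salmon divides the reads that transcripts share by a model, so these values were not tested.

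**Figure D2:**
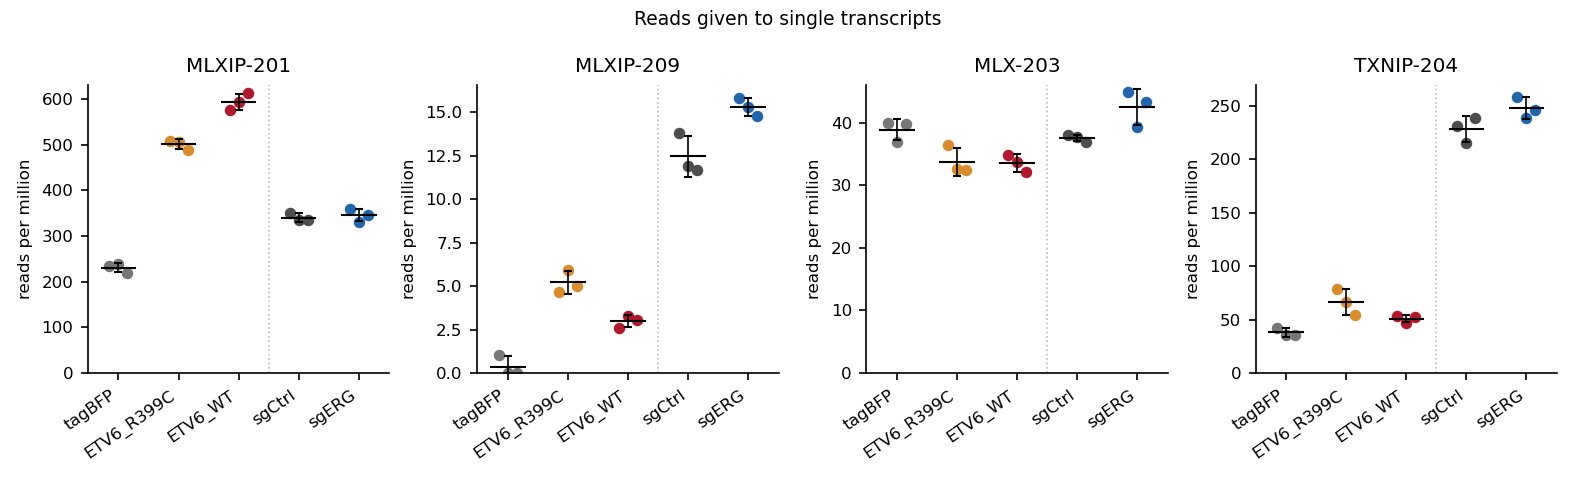
Reads given to 4 single transcripts, in RPM, in each library (vertical axes from 0, each with its own scale). Points are libraries, long bars group means and error bars SDs over 3 libraries. MLXIP-201 follows the gene, while MLXIP-209 is lowest with tagBFP and higher with ETV6_R399C than with ETV6_WT.

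The genes around MondoA were described from 6 lists, by the number called and the median log2 fold change. The median over all genes tested was -0.001 in ETV6_WT over tagBFP and in ETV6_R399C over tagBFP, which share the tagBFP libraries, and 0.001 in sgERG over sgCtrl. Genes named below only to complete a count of 5 or fewer were chosen after their values were seen.

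Genes that take up glucose or make and use glucose 6-phosphate, the metabolite MondoA senses, were mostly lower with both forms of ETV6. With ETV6_WT, 14 of 19 tested were called lower and 2 higher, with a median log2 of -0.22, where 36.5% of all genes were called, 18.9% lower and 17.6% higher. With ETV6_R399C, 12 of 19 were called lower, with a median of -0.16, where 22.1% of all genes were called lower and 18.8% higher. HK2, the inducible hexokinase that makes glucose 6-phosphate, fell from 112 ± 6.04 CPM with tagBFP to 81.0 ± 3.65 with ETV6_WT (log2 -0.47 ± 0.04 SE, edgeR adjusted p = 8.6e-06) and 87.0 ± 1.99 with ETV6_R399C (-0.37 ± 0.04, 5.3e-05). The phosphofructokinase subunit PFKP, which acts on the next hexose phosphate, fell from 243 ± 6.52 CPM to 187 ± 5.03 and 168 ± 4.28 (log2 -0.38 ± 0.03 and -0.53 ± 0.03 SE). PFKM, another subunit, fell by 0.33 ± 0.03 and 0.42 ± 0.03 on the log2 scale, and GPI, which converts glucose 6-phosphate to fructose 6-phosphate, by 0.33 ± 0.04 and 0.37 ± 0.04. The 2 that rose with ETV6_WT were the transporter SLC2A3 (0.23 ± 0.07 SE, edgeR adjusted p = 0.023) and PFKL, the liver-type phosphofructokinase (0.07 ± 0.03, 0.04). PFKL lost its call in 10 of 12 alternatives, among them the omission of any 1 of the 6 libraries (adjusted p from 0.08 to 0.28), and SLC2A3 lost it without any 1 of ETV6_WT replicates 2 and 3 and tagBFP replicates 1 and 2 (0.061 to 0.14). Taking transcript length into account left 9 lower calls with ETV6_WT and 8 with ETV6_R399C. In sgERG over sgCtrl 1 of 19 was called, PFKM, which fell by 0.23 (± 0.04 SE, edgeR adjusted p = 0.0045), where 7.74% of all genes were called lower, and the median was 0.01.

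Other genes reported as targets of MondoA or of its paralog ChREBP went both ways. Of 13 tested with ETV6_WT, 2 were called higher and 5 lower, with a median log2 of -0.19, where 17.6% of all genes were called higher and 18.9% lower. RGS16, a regulator of G-protein signalling, rose from 1.89 ± 0.136 CPM with tagBFP to 4.71 ± 0.262 with ETV6_WT (log2 1.31 ± 0.17 SE, edgeR adjusted p = 8.8e-05) and 4.11 ± 0.876 with ETV6_R399C (1.12 ± 0.17, 0.00026). It also rose with sgERG, from 2.79 ± 0.466 to 4.76 ± 0.527 CPM (0.77 ± 0.16, 0.0086). KLF10, a Krüppel-like transcriptional repressor, rose from 16.3 ± 0.253 to 22.7 ± 1.84 CPM with ETV6_WT (log2 0.48 ± 0.11 SE, edgeR adjusted p = 0.0053) and 26.5 ± 4.61 with ETV6_R399C (0.70 ± 0.11, 0.00036). The lower genes make fatty acids, lactate or glucose 6-phosphate. SCD, the desaturase of stearic acid, fell from 74.1 ± 2.8 CPM with tagBFP to 8.83 ± 0.559 with ETV6_WT (log2 -3.07 ± 0.06 SE, edgeR adjusted p = 5.0e-11) and 6.37 ± 0.534 with ETV6_R399C (-3.54 ± 0.06, 2.3e-11). The elongase ELOVL6 fell by 1.19 ± 0.09 with ETV6_WT, a call lost with the length correction (adjusted p = 0.14). The fatty acid synthase FASN fell by 0.41 ± 0.05, lactate dehydrogenase LDHA by 0.39 ± 0.05, and HK2 as above. With ETV6_R399C, 2 of 13 were called higher (RGS16 and KLF10) and 5 lower (SCD, LDHA, HK2, ELOVL6 and KHK), with a median of -0.03, where 18.8% of all genes were called higher and 22.1% lower. The call of KHK, ketohexokinase (log2 -0.19), was lost in DESeq2 (adjusted p = 0.11) and without any 1 of 5 libraries, ETV6_R399C replicates 1 to 3 (0.13, 0.12 and 0.057) and tagBFP replicates 1 and 3 (0.11 and 0.15). FASN was at 839 ± 67.3 CPM with tagBFP, 823 ± 12.1 with ETV6_R399C and 632 ± 18.6 with ETV6_WT, and fell in ETV6_WT over ETV6_R399C by 0.38 ± 0.05 on the log2 scale (edgeR adjusted p = 0.00025).

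In sgERG over sgCtrl, RGS16 was 1 of 12 called higher, where 6.89% of all genes were. KLF10 and LDHA were called lower, where 7.74% of all genes were, each by 0.18 ± 0.05 on the log2 scale (edgeR adjusted p = 0.035 and 0.036). Both calls were lost without sgERG replicate 2 (adjusted p = 0.12 and 0.079), without sgCtrl replicate 1 (0.15 and 0.059) and without sgCtrl replicate 3 (0.16 and 0.13). That of LDHA was also lost without sgCtrl replicate 2 (0.12), and that of KLF10 with the length correction (0.073).

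In the network of MYC, MAX and MLX, whose members compete for E-boxes and partners, 2 of 11 were called higher with ETV6_WT and 2 lower, where 17.6% of all genes were called higher and 18.9% lower, so that the share called was near that of all genes. MXD3, a MAX-binding repressor, rose from 85.0 ± 1.57 CPM with tagBFP to 138 ± 4.36 with ETV6_WT (log2 0.70 ± 0.03 SE, edgeR adjusted p = 1.6e-08) and 124 ± 1.89 with ETV6_R399C (0.55 ± 0.03, 2.2e-07), and fell with sgERG (-0.26 ± 0.05, 0.0083). MYC fell from 481 ± 9.58 CPM to 349 ± 9.5 with ETV6_WT and to 349 ± 7.69 with ETV6_R399C (log2 -0.46 ± 0.03 SE in both, edgeR adjusted p = 2.6e-07 and 4.0e-07), and was at 545 ± 28.8 and 595 ± 44.2 CPM with sgCtrl and sgERG (edgeR adjusted p = 0.18). MNT, a repressor that binds MAX or MLX, fell by 0.16 ± 0.03 with ETV6_WT (edgeR adjusted p = 0.0035). MXD4, also a MAX-binding repressor, was called higher with ETV6_WT by 0.17 ± 0.04, but stood at -0.01 with the length correction. MXD4 also lost its call without ETV6_WT replicate 1 (0.14, adjusted p = 0.065), tagBFP replicate 2 (0.13, 0.079) and tagBFP replicate 3 (0.12, 0.075). MLXIPL, which encodes ChREBP, was nearly silent, with 46 reads over the 3 tagBFP libraries, 32 with ETV6_R399C and 53 with ETV6_WT. It had 75 reads with sgCtrl and 4 with sgERG (edgeR adjusted p = 0.011, and 0.052 without sgCtrl replicate 3). In sgERG over sgCtrl, 1 of 11 was called higher, MYCL (log2 0.75 ± 0.12 SE, edgeR adjusted p = 0.0026), and 2 lower, MXD3 and MLXIPL. Of all genes, 6.89% were called higher there and 7.74% lower.

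Of the other alpha-arrestins, 0 of 4 were called in ETV6_WT over tagBFP by edgeR and 0 by DESeq2, with 1 at an unadjusted p under 0.05 (ARRDC3, log2 -0.17). In that comparison edgeR called 36.5% of all genes. With ETV6_R399C 3 of 4 were called, where 40.9% of all genes were. ARRDC3, which like TXNIP acts on membrane proteins, stood at 34.5 ± 0.675 CPM with tagBFP, 45.0 ± 4.09 with ETV6_R399C and 30.6 ± 1.25 with ETV6_WT. It rose with ETV6_R399C (log2 0.39 ± 0.06 SE, edgeR adjusted p = 0.00037) and fell in ETV6_WT over ETV6_R399C (-0.55 ± 0.06, 9.7e-05), and lost both calls with the length correction (adjusted p = 0.67 and 0.068). ARRDC2 likewise rose with ETV6_R399C (0.25 ± 0.03 SE, edgeR adjusted p = 4.0e-05) and fell in ETV6_WT over ETV6_R399C (-0.20 ± 0.03, 0.00069), the second a call lost with the length correction. ARRDC1 fell with ETV6_R399C (-0.21 ± 0.06, edgeR adjusted p = 0.014), a call lost in DESeq2 (0.051) and without ETV6_R399C replicate 1 (0.099). With sgERG, ARRDC2 fell from 119 ± 3.63 to 82.3 ± 6.83 CPM (log2 -0.53 ± 0.06 SE, edgeR adjusted p = 0.00016), the 1 call among 4, where 14.6% of all genes were called.

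Of 17 genes listed as partners of TXNIP or as part of the thioredoxin system, 3 were called higher with ETV6_WT (TXNRD2, ITCH and AKT2) and 7 lower, with a median log2 of -0.12. Of all genes, 17.6% were called higher there and 18.9% lower. Of the 3, TXNRD2 lost its call with the length correction (adjusted p = 0.15), ITCH without ETV6_WT replicate 1 (0.069) or tagBFP replicate 1 (0.053) or 2 (0.078), and AKT2 without any of tagBFP replicates 1 to 3 (0.15, 0.06 and 0.063) or ETV6_WT replicates 1 and 2 (0.067 and 0.18). With ETV6_R399C 3 were called higher (ITCH, DDIT4 and PRKAB1) and 5 lower (TXN, TXN2, TXNRD1, PRDX2 and PRDX3), with a median of -0.08, where 18.8% of all genes were called higher and 22.1% lower. The mitochondrial thioredoxin TXN2 fell by 0.24 ± 0.04 with ETV6_WT and by 0.26 ± 0.04 with ETV6_R399C, and the reductase TXNRD1 by 0.19 ± 0.04 and 0.29 ± 0.04. The peroxiredoxin PRDX2 fell by 0.24 ± 0.05 and 0.23 ± 0.04. DDIT4, a stress-induced inhibitor of mTORC1 that binds TXNIP, had the order of TXNIP's 2 ETV6 groups, at 180 ± 26.4 CPM with ETV6_R399C and 91.1 ± 4.82 with ETV6_WT (log2 -0.98 ± 0.09 SE, edgeR adjusted p = 2.0e-05), but stood at 115 ± 6.43 with tagBFP, above ETV6_WT. With sgERG, PRDX1 fell from 325 ± 7.99 to 207 ± 4.68 CPM (-0.65 ± 0.04, edgeR adjusted p = 1.9e-06), and DDIT4 was the 1 of 16 called higher (0.24 ± 0.04, 0.0046), where 6.89% of all genes were. TXN and NEDD4L, a ubiquitin ligase, were called lower too, by 0.18 and 0.34, so that 3 of 16 were called lower, where 7.74% of all genes were. The call of TXN was lost without any 1 library but sgERG replicate 3 (adjusted p from 0.061 to 0.13), and that of NEDD4L without sgERG replicate 2 (0.069), sgCtrl replicate 1 (0.061) or sgCtrl replicate 3 (0.094) and with the length correction (log2 -0.18, adjusted p = 0.3). Among the 14-3-3 proteins and exportin 1, which hold MondoA in the cytoplasm or carry it there, 3 of 7 were called lower with ETV6_WT (YWHAQ, YWHAB and YWHAE, by 0.18, 0.11 and 0.12 on the log2 scale), where 18.9% of all genes were, and all 3 calls were lost with the length correction. That of YWHAE was also lost without ETV6_WT replicate 3 (adjusted p = 0.065). With ETV6_R399C 5 of 7 were called lower, where 22.1% of all genes were: YWHAQ by 0.24, YWHAE by 0.18, YWHAH by 0.15, YWHAG by 0.14 and YWHAB by 0.10 on the log2 scale. Of these, YWHAB, YWHAH and YWHAG lost their calls with the length correction and without ETV6_R399C replicate 1 (adjusted p = 0.15, 0.05 and 0.065 without it). With sgERG, 2 of 7 were called higher, YWHAB and YWHAH, by 0.14 and 0.18, where 6.89% of all genes were. These 2 calls were lost without sgCtrl replicate 1 (adjusted p = 0.14 and 0.083) or 3 (0.16 and 0.066), for YWHAB also without sgERG replicate 1 (0.075) or 2 (0.098) and for YWHAH without sgCtrl replicate 2 (0.055).

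**Figure D3:**
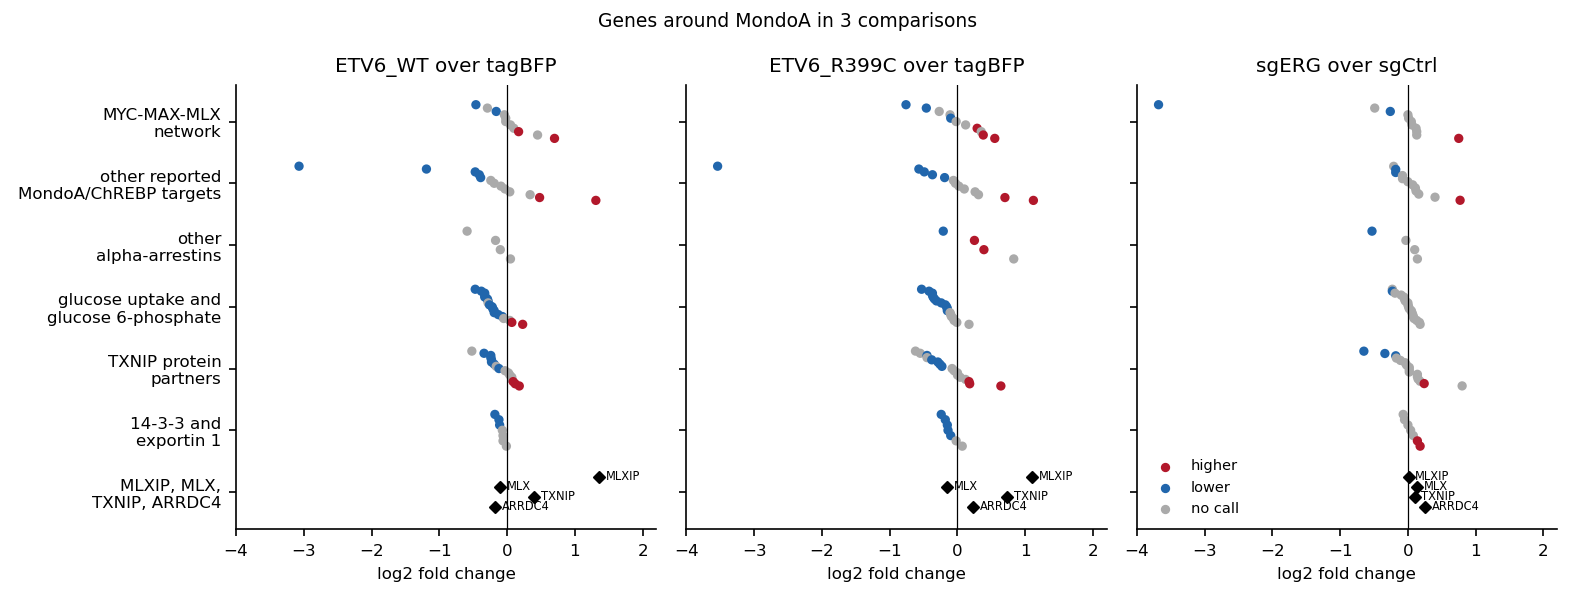
Log2 fold change of each tested gene of the 6 lists in 3 comparisons (horizontal axis), coloured by its edgeR call at an adjusted p of 0.05, with the 4 genes described here as uncoloured diamonds. In the glucose list 14 of 19 genes are called lower with ETV6_WT, 12 with ETV6_R399C and 1 with sgERG.

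Genes beside MLXIP were compared to see whether the surrounding region moved too. Of 7 tested protein-coding genes that start within 250 kb of it (DIABLO counted under 2 identifiers), 2 were called higher and 0 lower with ETV6_WT. In that comparison 17.6% of all genes were called higher and 18.9% lower. BCL7A, a subunit of chromatin-remodelling complexes whose start lies at -59.3 kb from that of MLXIP, rose from 116.5 ± 4.54 CPM with tagBFP to 182 ± 2.45 with ETV6_R399C and 217 ± 1.75 with ETV6_WT. The log2 fold changes were 0.64 ± 0.03 and 0.89 ± 0.03 SE (edgeR adjusted p = 4.9e-08 and 2.3e-09), and ETV6_WT was also above ETV6_R399C (0.25 ± 0.03, 0.00016). Unlike MLXIP, BCL7A rose with sgERG, from 80.7 ± 2.42 to 113.6 ± 5.9 CPM (0.49 ± 0.05, 7.6e-05), but the difference between the 2 genes was not tested. With sgERG, 2 of 9 tested neighbours were called higher, BCL7A and WDR66, where 6.89% of all genes were. WDR66, at -160.9 kb, rose there by 0.63 ± 0.12 SE (edgeR adjusted p = 0.0065). The other call in ETV6_WT over tagBFP was also WDR66, with 0.31 ± 0.10 SE (edgeR adjusted p = 0.026). That call in ETV6_WT over tagBFP was lost in 8 alternatives, among them DESeq2 (adjusted p = 0.10) and the omission of ETV6_WT replicate 2 (0.081), ETV6_WT replicate 3 (0.093), tagBFP replicate 1 (0.07), tagBFP replicate 2 (0.078) or tagBFP replicate 3 (0.089). Near MLX, 17 genes were tested with ETV6_WT, 1 called higher and 3 lower, beside the same 17.6% and 18.9% of all genes. VPS25, a subunit of the ESCRT-II sorting complex, had the smallest p among them (log2 -0.37 ± 0.05 SE, edgeR adjusted p = 0.00021). Near TXNIP, 12 were tested in the same comparison, 3 called higher and 2 lower, again beside 17.6% and 18.9% of all genes. ITGA10, an integrin subunit, was higher by 3.12 ± 0.65 (edgeR adjusted p = 0.0029), on 254 reads over the ETV6_WT libraries against 35 with tagBFP. RBM8A, a core subunit of the exon junction complex, fell by 0.15 ± 0.04 (edgeR adjusted p = 0.0051). The start of ARRDC4 has no such neighbour.

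The genes most like MLXIP were sought over all 15 libraries. For each of 9875 protein-coding genes with a mean of at least 5 CPM in both experiments, the log2 profile was centred within each experiment and its root mean square difference from that of MLXIP was taken. The closest were PDGFA, a growth factor (0.059), FOXL1, a forkhead factor (0.073), HIC2, a zinc-finger repressor (0.089), the interferon-induced IFIT2 (0.099) and the zinc-finger factor ZBTB46 (0.122), against 0.457 for a flat profile. PDGFA stood at 30.8 ± 0.756 CPM with tagBFP, 71.3 ± 2.24 with ETV6_R399C and 80.5 ± 1.94 with ETV6_WT, and at 7.30 ± 0.382 and 7.50 ± 0.302 CPM with sgCtrl and sgERG. The genes most like TXNIP were the proton channel gene HVCN1 (0.092), SFXN3 (0.093), the zinc-finger factor KLF7 (0.097), ABCA7, an ABC transporter (0.10) and the zinc-finger factor KLF6 (0.104), against 0.254 for a flat profile. KLF6 stood at 46.6 ± 1.25 CPM with tagBFP, 83.4 ± 2.86 with ETV6_R399C and 68.7 ± 2.05 with ETV6_WT. The difference of MLXIP was 0.322 from TXNIP, 0.501 from ARRDC4 and 0.503 from MLX. The 5 closest genes were picked for the smallest differences, so any other candidate lies farther away by that rule. ARRDC4, at 2.29 to 3.02 CPM in the group means of the ETV6 experiment, was under the floor of 5 CPM set for candidates. TXNIP and ARRDC4 differed from each other by 0.221. The 15 libraries share their cell line and, within an experiment, their scaling, and likeness was the rule by which these genes were named.

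**Figure D4:**
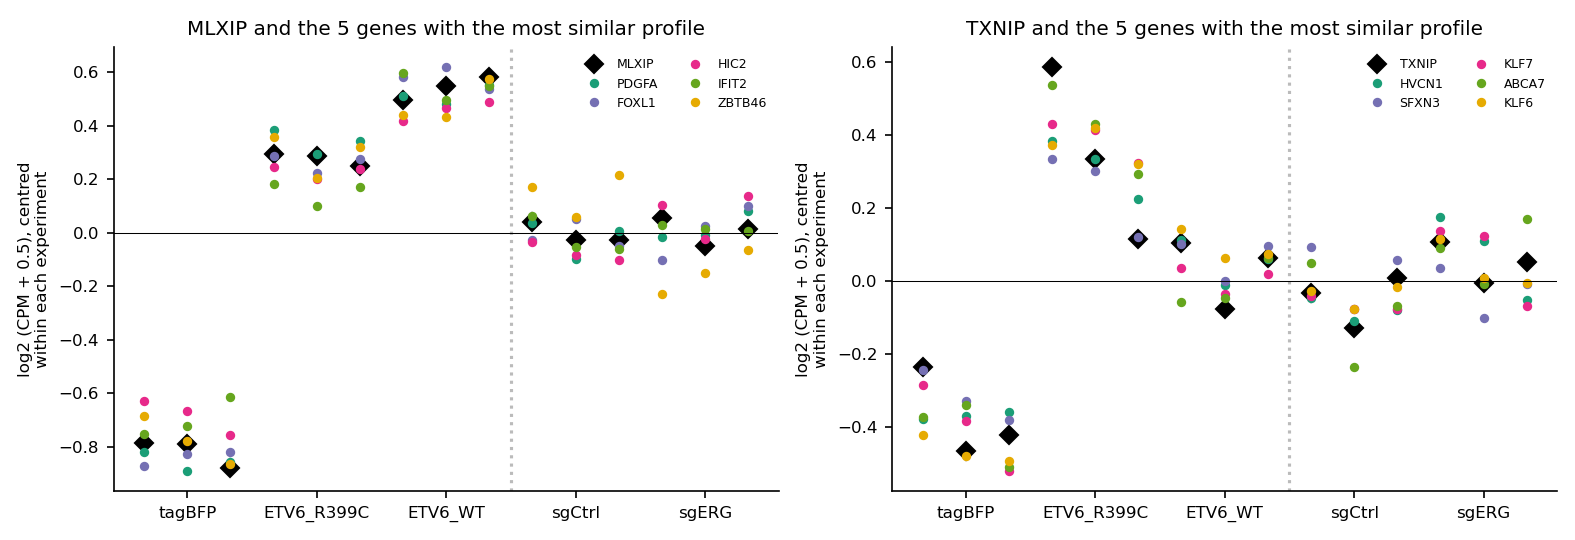
Level of MLXIP (left) and TXNIP (right), as black diamonds, and of the 5 genes with the most similar profile in each library, as log2 (CPM + 0.5) centred within each experiment (vertical axis). The libraries of each group stand side by side, and the dotted line parts the experiments. The MLXIP panel steps up from tagBFP to ETV6_R399C to ETV6_WT, while the TXNIP panel peaks with ETV6_R399C.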

How the data were processed

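Each library came as 1 table of transcripts with a length, an effective length, a TPM value and an estimated count of reads. The authors made them with Salmon 0.11.3 on hg38, per the submitters' processing notes. The estimated counts are deposited without scaling between libraries. The TPM values the authors deposited sum to 1000000 in each. The library kit was directional, per the labels' protocols. No source used here gives the strand setting or the bias options.

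By identifier, 90.3% of 167268 transcripts were found in GENCODE release 29. The rest held 6.67% to 7.56% of a library's reads and, without a gene name, were left out. Expected counts were summed per gene and rounded. edgeR 4.0.16 (R 4.3.3) fitted the 9 libraries of the ETV6 experiment (14242 genes, biological coefficient of variation 4.95%) and the 6 of the ERG experiment (13464 genes, 6.24%) separately, with TMM scaling, filterByExpr, the quasi-likelihood test and p-values adjusted by Benjamini-Hochberg over every gene in the fit (threshold 0.05). It was tested on simulated data. The SE is the size of the log2 fold change divided by the square root of F and thus restates the test. CPM values refer to the TMM-scaled sum over named genes, and RPM values to all reads. No pair of replicates agreed within sampling noise, so all 15 libraries were counted singly.

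The 4 genes, the gene lists and the tests were chosen with earlier results of these data known. From each list and from the neighbours, the up to 4 called genes with the smallest p in ETV6_WT over tagBFP and the up to 3 in sgERG over sgCtrl could be named. For MLXIP and TXNIP, the 5 genes with the closest profile were named (mean of at least 5 CPM, 0.5 added before the logarithm). Other named genes complete a count or were chosen after their values were seen. Alternatives were DESeq2 1.42.0, upper-quartile scaling, no filter on low counts, an offset for transcript length, the 2 groups compared alone, a replicate block, and leaving out each library. PKLR, ACACA and SLC2A6 were not analysed here.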

Additional observations from a re-analysis of the deposited data

How the results depend on the processing

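Of the 164 results on named genes, checked 1944 times over the alternatives, 1733 checks kept the call and direction, 208 lost the call and 3 reversed. The offset for transcript length changed most. It lowered the genes called to 2913 from 5202 in ETV6_WT over tagBFP, to 3427 from 5826 in ETV6_R399C over tagBFP and to 1236 from 3044 in ETV6_WT over ETV6_R399C. It gave MLX -0.07 in ETV6_WT over tagBFP, MLX in ETV6_R399C over tagBFP -0.14 (edgeR adjusted p = 0.14), MLXIP 1.17 in ETV6_R399C over tagBFP and 0.16 in ETV6_WT over ETV6_R399C, and TXNIP -0.32 in ETV6_WT over ETV6_R399C. It left 9 genes of the glucose list lower with ETV6_WT. It reversed MXD4 (-0.01) and RETREG3 (-0.05) in ETV6_WT over tagBFP and NAGLU (0.13) in ETV6_R399C over tagBFP, and the cause was not tested. Leaving out single libraries gave 2008 to 3110 genes called in ETV6_WT over ETV6_R399C, lowest without ETV6_R399C replicate 1 (2008) and ETV6_WT replicate 2 (2009). It gave 1160 to 2302 in sgERG over sgCtrl, lowest without sgCtrl replicate 1 (1160) and replicate 3 (1162). The range was -0.44 to -0.21 for TXNIP in ETV6_WT over ETV6_R399C and -0.01 to 0.04 for MLXIP in sgERG over sgCtrl, with 0.00 without sgCtrl replicate 3, and for ARRDC4 -0.32 to -0.12 in ETV6_WT over tagBFP. Where an arm kept 2 libraries the spread was pooled. Upper-quartile scaling gave 1336 genes higher and 1549 lower in ETV6_WT over ETV6_R399C, against 1721 and 1323, and the 2 groups alone gave 1400 and 1589. The number higher was 863 to 1859 on leaving out single libraries, at 878 and 1060 without ETV6_R399C replicates 1 and 2 and at 901, 863 and 1139 without ETV6_WT replicates 1, 2 and 3, and the number lower was 971 to 1251. Same-numbered replicates did not deviate together over the genes tested (r from -0.062 to 0.069). These values cannot say whether same-numbered replicates were handled as matched sets. With the replicate block the genes called were 5086 in ETV6_WT over tagBFP, 5656 in ETV6_R399C over tagBFP, 2973 in ETV6_WT over ETV6_R399C and 1536 in sgERG over sgCtrl, against 5202, 5826, 3044 and 1969, and no call on the 4 genes changed. Depth limits ARRDC4 most, with 47 to 88 reads per library in the ETV6 experiment.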
